A study of Homo sapiens with 19 samples.

Results

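Retained intron events are stretches of RNA in which an intron is left in some transcripts and removed from others. Every row of that type was collected from the 9 comparison tables that the authors made with rMATS, a program that counts reads for alternative splicing events. The tables held 4395 such rows, 459 to 511 in each. Merged by gene and intron coordinates, 4180 of the rows gave 565 introns in 462 genes, and the other 215 rows could not be tied to 1 intron. These are 565 of 65568 merged events of 5 types in the same tables. Of the 565 introns, 358 appeared in all 9 tables and 26 in 1 table. Values in all 14 libraries of the comparisons, with control values equal between tables, existed for 349 introns and not for 216. Of the 349, 36 had too few reads, and 313 introns in 267 genes were tested. The events of all types set beside them below are only part of the 65568. Events of the other types were kept if their coordinates occurred once in each table. Before the read filter this left 18735 events of all types. Of these, 10687 were mutually exclusive exon events (of 13863) and 5844 cassette exon events (of 47405). Shares over all events therefore leave out most cassette exon events.

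The series measured ribosomal RNA-depleted total RNA from established human cell lines, in 19 libraries. HUES66, a human embryonic stem cell line, gave 14 libraries treated with doxycycline at 1 µg/ml: control at 24 hr (replicate 2), 48 hr and 96 hr; RBFOX2 total knockdown at 24 hr (replicate 1), 48 hr and 96 hr; and RBFOX2 N-short knockdown and N-long knockdown, each at 24 hr (replicates 1 and 2), 48 hr and 96 hr. The series title names Cas13d, an RNA-cutting enzyme guided by RNA, and RBFOX2 is a splicing factor; the labels give the controls the genotype WT, and all 14 libraries received doxycycline, the controls included. Untreated libraries of HUES66 WT, HEK293 (an embryonic kidney line) and A375 (a melanoma line), the last as total, nuclear and cytoplasmic RNA, were 1 each. The labels do not give the guide sequences, or whether the cells of a group were a clone or a mixed population, and nothing says that the libraries came from separate cultures, so that p-values measure the spread between these libraries.

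Most introns are removed while the RNA is still being made. A transcript that keeps an intron is often held in the nucleus, where such introns are called detained, or, if it reaches the cytoplasm with a premature stop codon, is destroyed by nonsense-mediated decay. In some genes the intron holds a small nucleolar RNA (snoRNA), which guides the chemical modification of other RNAs and is cut from the removed intron. In others both forms are stable messages, with a coding or untranslated stretch more or less.

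The splice sites of introns on which the results turn are shown first, because the difference between the 2 forms is whether these sites were used. Each is given 5′ to 3′ on the gene's strand, as 3 exon and 6 intron bases at the donor and 20 intron and 3 exon bases at the acceptor; capitals mark the first 2 and last 2 bases of the intron. The bases were read from GENCODE 29 transcripts in which the intron lies inside an exon, on the hg38 build.
GAS5 SNORD79 intron, donor: aagGTacat
GAS5 SNORD79 intron, longer form, donor: tggGTaagg
GAS5 SNORD79 intron, both forms, acceptor: aggagattaaatttctacAGgta
GAS5 SNORD44 intron, donor: atgGTaagt
GAS5 SNORD44 intron, acceptor: agaccactcttatttcttAGgtg
PABPN1 last intron, donor: cagGTcagg
PABPN1 last intron, acceptor: actctccttctttcttccAGggg
SRSF2 3′ UTR intron, donor: atgGTaatg
SRSF2 3′ UTR intron, acceptor: ttctttcttttcaaacctAGatg
HNRNPM intron, donor: aagGTgatg
HNRNPM intron, acceptor: agattatccatgcattacAGgct
AKAP8L intron, donor: tggGTatgg
AKAP8L intron, acceptor: gccgattccgttttatccAGaat
ATG3 and CCDC28B introns, donor: tatGTatcc
CCDC82 intron, donor: aacATttaa
CCDC82 intron, acceptor: agaggatgatcaggaaaaACatt
The ATG3 and CCDC28B donors begin with the minor-class motif searched for (GTATCCTT or ATATCCTT at the start of the intron, on the gene's strand), which marks introns removed by the minor spliceosome. The CCDC82 intron, of 69 nt, was placed with AT and AC at its ends, without that motif. The same bases stand across its donor and its acceptor as printed. Spliced reads therefore do not fix its exact ends, and AT and AC do not show that it is a minor-class intron.

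Sequence could be read for 479 of the 565 introns. Their ends were GT and AG in 96.0%, against 94.4% of 22374 other annotated introns that lie inside an annotated exon. The minor-class donor was found in 2 of the 479 (0.418%) against 56 of the others (0.25%). The motif bound by RBFOX proteins, TGCATG on the gene's strand, lay in the first 80 bases of 7 of 458 introns (1.53%) against 2.45% of the others, and in the last 80 bases of 6 (1.31%) against 1.9%. These are matches of letters in a window and are given without a test.

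By position in the gene, 306 of the 565 introns (54.2%) interrupted coding sequence, 111 (19.6%) lay in a 5′ UTR, 37 (6.55%) in a 3′ UTR and 111 (19.6%) in a gene or transcript with no coding sequence. The median length was 273 nt. Of the coding introns 163 (53.3%) had a length that is a multiple of 3, which leaves the reading frame intact, against 29.7% in 5′ UTRs, 21.6% in 3′ UTRs and 36.9% without coding sequence. Among the other annotated introns inside an exon, wherever they lay, the share was 33.3%. The members are not independent regions: 120 overlap another member, 55 genes hold more than 1, and the 565 introns form 491 regions that do not overlap.

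Inclusion is the percent of transcripts that keep the intron, from reads that cross the exon-intron borders (retained) and reads that cross the exon-exon junction (spliced), each divided by the length over which such reads can fall. Reads of unfinished RNA count as retained, so an inclusion value does not separate stable transcripts with the intron from transcripts not yet spliced. The spliced reads equalled the count in the separate junction files in 75.41% of 6592 library values and were within 10% or 2 reads in 99.83%. A tested intron had a median of 86 reads of both forms per library (quartiles 43 and 286).

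Retention ran from nearly none to nearly complete. By the median over the 3 control libraries, 77 of the 313 introns (24.6%) had an inclusion under 10%, 99 (31.6%) of 10% to 50%, 97 (31.0%) of 50% to 90%, and 40 (12.8%) of 90% or more. From the lowest class to the highest, the median length was 146, 227, 358 and 289.5 nt, and the median GC content was 59.7%, 53.5%, 51.4% and 48.5%. Of the coding introns alone, 29 of 68, 33 of 58, 28 of 43 and 10 of 15 had a length that is a multiple of 3 (42.6%, 56.9%, 65.1% and 66.7%). Introns among those with the highest control inclusion lay in CMTM4, CUTA, RPRD1A, NFE2L1 (a transcription factor of the proteasome genes), GAS5, PELP1, RPL13, SNHG14 and PABPC1. For the NFE2L1 intron, in the 5′ UTR, inclusion ran from 95.7% to 100% in the 14 libraries. In these introns it is the spliced form that is rare.

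Both introns with the minor-class donor had low inclusion, and the CCDC82 intron, whose AT and AC ends are uncertain, had a higher one. ATG3 encodes an enzyme of autophagy; its intron had an inclusion of 4.38%, 4.72% and 6.02% in the total, N-short and N-long knockdown libraries of 24 hr replicate 1, 2.79%, 1.41% and 1.38% in the control, N-short and N-long libraries of replicate 2, and 3.35% to 4.68% in the 8 libraries of 48 and 96 hr. The CCDC28B intron ran from 1.82% to 10.2% and the CCDC82 intron from 51.8% to 71.5% over the 14 libraries. None of the 3 passed a test in any comparison below.

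The second readout, from the junction files of all 19 libraries, needs no retained reads: the spliced reads of an intron as a percent of the mean of its 2 neighbouring introns, available for 253 introns and here called relative splicing. The retained introns had a median relative splicing of 34.6% (HEK293) to 55.1% (total knockdown at 24 hr) in the 19 libraries. Other introns of the same genes had medians of 82.5% to 85.8%, and all introns 87.5% to 90.2%. The medians of the retained introns cover 157 to 228 introns, a different set in each library, so they do not compare libraries. In the control libraries, inclusion and relative splicing were inversely related over 145 introns (Spearman's rho -0.838, Pearson's r -0.738). The relation is across introns and both measures contain the same spliced reads, so it is given as a description.

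**Figure D1:**
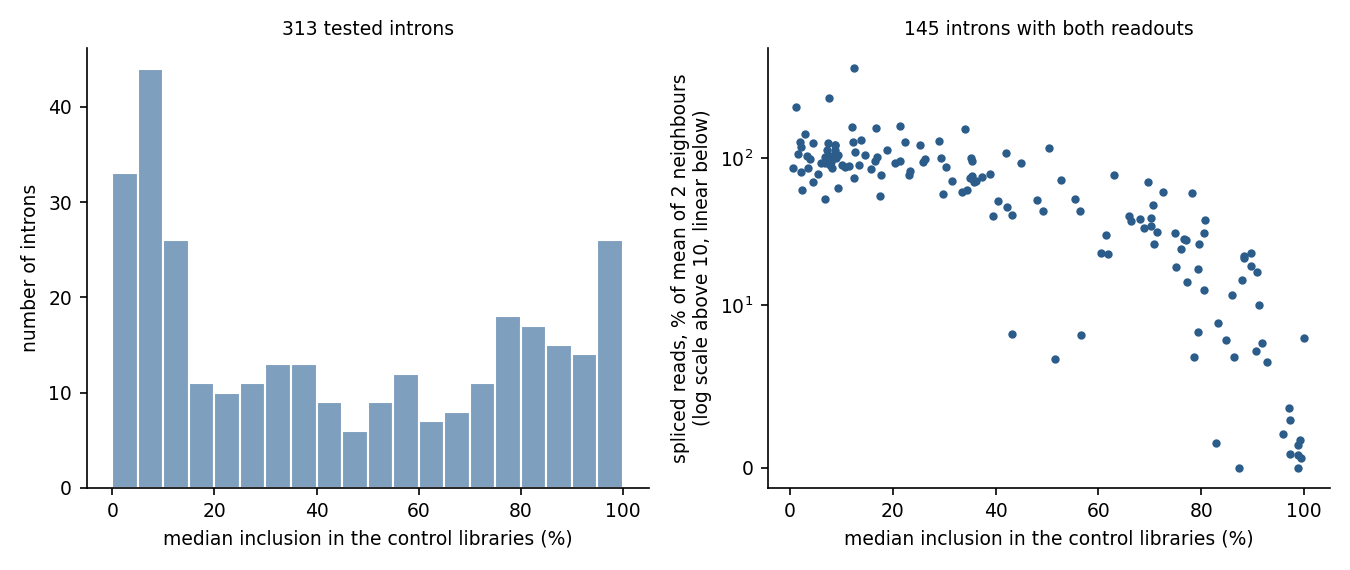
Left, the number of tested introns (vertical axis) by median inclusion in the 3 control libraries, in percent, in bins of 5 points; right, relative splicing in the same libraries (spliced reads as percent of the mean of 2 neighbouring introns, log scale above 10) against inclusion for 145 introns. The introns gather at both ends of the inclusion scale, with 77 under 10% and 40 at 90% or more, and introns with high inclusion have few spliced reads relative to their neighbours.

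The libraries fall into 4 sets: 24 hr replicate 1 (no control), 24 hr replicate 2 (no total knockdown), 48 hr and 96 hr. The median inclusion over introns was 31.7% to 34.3% in the first set, 35.0% to 37.9% in the second, 35.5% to 36.3% at 48 hr and 38.5% to 41.2% at 96 hr. The higher medians at 96 hr are not a rise in most introns. The median difference per intron from 48 hr was 0.0553 points, with 162 of 315 introns above 0 and 153 below. In introns with at least 50 reads the library medians overlapped, at 29.41% to 31.03% at 48 hr and 30.03% to 34.02% at 96 hr. Junction reads per library were 9622841 to 14625040 in the 14 treated libraries and 6499183 (A375 nuclear) to 27937149 (HUES66 WT) in the others. Summed pluripotency markers were at 3187 to 4913 CPM, the junction reads of a gene scaled to the library's total in all 14, with none of the 9 genes at 0, and at 9.04 in A375 total RNA. RBFOX2, which has no retained intron event, was at 119 to 126 CPM in the controls, 48.2, 78.7 and 75.8 with total knockdown, 107 to 120 with N-short and 72.7 to 87.6 with N-long knockdown; its gene sum does not separate the isoforms. In bulk RNA such as this, fewer cells of a type and less RNA per cell cannot be told apart.

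The first question is whether retention changed when RBFOX2 or either isoform was lowered. The last intron of PABPN1 was the single member that passed, lower with total knockdown. PABPN1 binds poly(A) tails in the nucleus and is known to adjust its own level through retention of this intron, of 957 nt at chr14:23324290-23325246, plus strand. Inclusion in the controls was 7.33% (24 hr replicate 2), 9.76% (48 hr) and 6.45% (96 hr), and with total knockdown 4.88% (24 hr replicate 1), 5.82% and 5.13%. The total knockdown libraries lay below all the controls, and the control at 48 hr was the highest of the 14 libraries.

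Within the 48 and 96 hr sets, the PABPN1 intron was lower by a mean of -2.63 ± 1.85 percentage points with total knockdown (SD, n = 2 sets; log2 odds ratio -0.58, SE 0.13; edgeR quasi-likelihood test with Benjamini-Hochberg adjusted p = 0.00675), lower in 2 of 2 sets. It was the 1 call among 313 introns (0.319%), where 77 of 15796 events of all types passed (0.487%), 0.12% higher and 0.367% lower. Retained reads were 11.3, 12.2 and 10.3 CPM in the controls and 8.59, 7.78 and 8.08 with total knockdown; spliced reads were 71.1, 56.4 and 74.5 against 83.7, 62.9 and 74.8. The call rests on the 48 hr libraries: the edgeR adjusted p was 0.348 without the control and 0.261 without the total knockdown library of 48 hr, and it was 0.174 by limma and 1.0 by DESeq2, which called 0.139% and 0.108% of all events. With N-short knockdown the PABPN1 intron was at 6.68%, 7.03%, 7.48% and 6.12% (edgeR adjusted p = 0.997), and with N-long knockdown at 6.48%, 7.21%, 8.53% and 6.54% (0.991). Whether either isoform knockdown differs from total knockdown at this intron was not tested.

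No other intron passed with total knockdown, by edgeR, limma or DESeq2, and 33 of 313 (10.5%) had an edgeR unadjusted p under 0.05, against 6.69% of all events. The 5 introns of smallest p, which did not pass, lay in 2 genes. CTNNB1 encodes β-catenin, the effector of Wnt signalling, and its 3′ UTR intron of 464 nt was at 56.7%, 62.7% and 57.4% in the controls and 58.5%, 68.4% and 65.9% with total knockdown. Its difference was 7.10 ± 2.01 points (SD, n = 2 sets; edgeR adjusted p = 0.103, and 0.0467 to 1.0 over 20 other fits, of which 1 passed). The other 4 were GAS5 introns, each lower with total knockdown, by -4.42 ± 2.16 points for the SNORD47 intron (edgeR adjusted p = 0.132), -4.15 ± 2.45 for the 168-nt intron (0.296), -3.08 ± 0.075 for the SNORD80 intron (0.294) and -3.19 ± 0.55 for the SNORD79 intron (0.358). They lie in 1 transcript and are not separate replicates.

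With N-short knockdown, and with N-long knockdown, 0 of 313 introns passed by edgeR, limma or DESeq2, where edgeR called 0 (0%) and 29 (0.184%; 0.057% higher, 0.127% lower) of 15796 events, and DESeq2 0.0253% with N-long knockdown. An edgeR unadjusted p under 0.05 was found for 18 introns (5.75%) in either comparison, against 4.72% and 5.26% of all events. BCAM encodes a laminin receptor; its intron of 978 nt had a mean of 55.2 reads per library and was at 39.2%, 31.1% and 35.4% in the controls. It was at 46.9%, 62.5%, 45.6% and 55.9% with N-short and at 57.7%, 52.4%, 44.6% and 51.4% with N-long knockdown. All 8 values were above the 3 controls, while total knockdown, at 36.4%, 48.4% and 37.0%, overlapped both. The differences did not pass: 19.4 ± 4.47 points with N-short (SD, n = 3 sets; edgeR adjusted p = 0.997) and 14.2 ± 1.54 with N-long knockdown (0.514). The comparisons share these controls. BCAM was named for its small p among the 313 introns, and its difference with N-short knockdown was the highest of them. How many introns separate in this way was not counted.

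Between N-long and N-short knockdown, 0 introns passed by edgeR, limma or DESeq2, where edgeR called 20 of 15796 events (0.127%; 0.0253% higher, 0.101% lower), and 11 introns (3.51%) had an edgeR unadjusted p under 0.05 against 5.19% of all events. VAMP1 encodes a protein of synaptic vesicle fusion. Its last intron, with a mean of 27.4 reads per library, was at 93.1%, 100%, 74.2% and 100% with N-short and 64.3%, 62.5%, 68.4% and 73.9% with N-long knockdown. The groups did not overlap, and the difference of -24.5 ± 13.4 points (SD, n = 4 sets) had an edgeR adjusted p of 0.889. VAMP1 was named for its small p among the 313 introns, and its difference was the lowest of them. How many introns separate in this way was not counted. Over the 313 introns the median absolute difference in inclusion was 2.32 points with total, 1.70 with N-short and 1.76 with N-long knockdown, and 1.39 between the isoform knockdowns.

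Relative splicing gave no member call either. It was fitted for 105774 annotated introns, 173 of them retained introns: 0 of the 173 passed in any of the 4 comparisons by edgeR, limma or DESeq2, where edgeR called 30 (0.0284%), 4 (0.00378%), 7 (0.00662%) and 9 (0.00851%) of all introns with total, N-short and N-long knockdown and between the isoforms. An edgeR unadjusted p under 0.05 was found for 10, 4, 9 and 7 of the 173 (5.78%, 2.31%, 5.20% and 4.05%), against 3.42%, 3.03%, 3.10% and 3.11% of all introns.

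The second comparison is between times, 96 against 48 hr, over the control, total, N-short and N-long knockdown library of each. Here 47 of 315 introns passed (14.9%), 28 higher and 19 lower at 96 hr, in 39 genes, where 880 of 15962 events of all types passed (5.51%). For the directions the shares were 8.89% and 6.03% of introns, against 2.83% and 2.69% of events. With limma 19 introns passed (6.03%) against 1.8% of all events, and edgeR called 30 without the N-short knockdown library of 48 or 96 hr or the N-long knockdown library of 96 hr, and 31 without the N-long knockdown library of 48 hr. The 4 libraries of the times did not overlap for 64 of the 315 introns (20.3%) against 9.24% of all events. They did not overlap for 41 of the 47 either, which were called on these same values. Each time is 1 library set, so time in doxycycline, cell harvest and library preparation cannot be told apart, and the difference between the shares was not tested.

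The same measure varied between the 24 hr replicates. Replicate 2 minus replicate 1, over N-short and N-long knockdown, had a median absolute difference of 3.62 points over the tested introns, against 2.89 points for 96 minus 48 hr. The former is a mean of 2 pairs per intron and the latter of 4, which carries less counting noise. The sizes therefore do not show which difference is larger. Among the 47 called introns the replicate difference was 4.01 against 11 points, was as large as the time difference in 5, and had the opposite sign in 38. Over all 315 tested introns these numbers were 178 and 203. The 47 were called for their time difference in these same values, so its larger size among them follows from the choice. Called introns that were higher at 96 hr had a median length of 192 nt, and those that were lower a longer one, beside 244 nt for all tested. Last introns made up 10 of the 28 higher and 9 of the 19 lower calls, beside 110 of the 315.

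**Figure D2:**
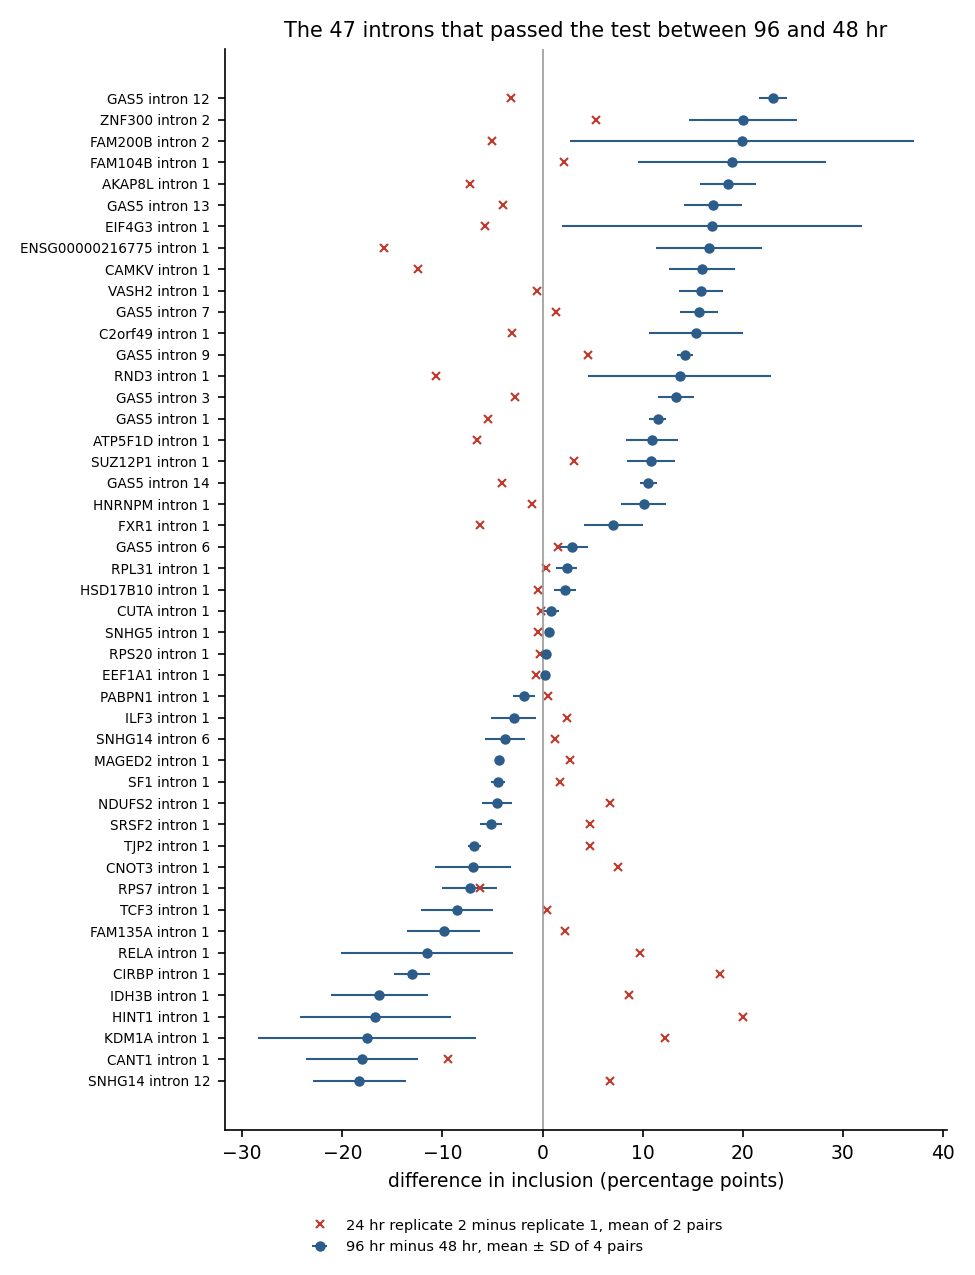
Difference in inclusion in percentage points (horizontal axis) for each of the 47 introns that passed between 96 and 48 hr, named by gene and by the number of the intron among that gene's events in order of coordinate. Dots are the mean of 4 differences, 1 each for control, total, N-short and N-long knockdown, with the SD; crosses are 24 hr replicate 2 minus replicate 1, the mean of N-short and N-long knockdown, and 38 of the 47 crosses lie on the other side of 0 from the dot.

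GAS5 held 8 of the 28 introns that were higher at 96 hr. GAS5 is a noncoding gene whose introns carry box C/D snoRNAs and whose spliced RNA is known to be destroyed by nonsense-mediated decay when it is translated. The gene has 15 of the 565 members, which overlap each other; 12 were tested, and the 8 that passed form 6 regions. Without GAS5, 20 introns were higher and 19 lower of 303 (12.9%). No GAS5 intron passed in a knockdown comparison.

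The SNORD79 intron, of 188 nt at chr1:173865283-173865470 on the minus strand, had the largest difference of the 47. Inclusion was 29.5%, 26.7%, 28.4% and 26.4% at 48 hr in the control, total, N-short and N-long knockdown libraries and 51.9%, 48.3%, 53.3% and 49.5% at 96 hr. At 24 hr it lay between, at 33.9%, 44.0% and 40.5% with total, N-short and N-long knockdown in replicate 1 and at 39.5%, 38.6% and 39.6% in the control, N-short and N-long libraries of replicate 2. The difference was 23.0 ± 1.37 points (SD, n = 4 pairs; log2 odds ratio 1.42, SE 0.085; edgeR adjusted p = 1.2e-24), higher in 4 of 4 groups.

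For the GAS5 SNORD79 intron, spliced reads were 40.9, 45.3, 41.3 and 40.8 CPM at 48 hr and 18.9, 23.3, 18.4 and 22.8 at 96 hr. Retained reads were 34.2, 33.0, 32.8 and 29.2 at 48 hr and 40.8, 43.4, 42.0 and 44.8 at 96 hr. The spliced form was thus lower in every library of 96 hr, and the retained form higher. Its relative splicing, against neighbours that are GAS5 introns too, was 51.1%, 48.1%, 53.3% and 49.8% at 48 hr and 40.1%, 41.7%, 38.5% and 44.7% at 96 hr.

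The longer form of that intron, of 227 nt with the same acceptor, was higher by 17.1 ± 2.90 points. From 5′ to 3′ in GAS5, the differences were 10.6 ± 0.87 points for the SNORD44 intron, 14.3 ± 0.79 for the SNORD80 intron, 15.6 ± 1.90 for the 168-nt intron, in which the tables used place no snoRNA, 13.3 ± 1.77 for the SNORD47 intron and 11.5 ± 0.86 for the SNORD81 intron (all SD, n = 4 pairs). Their edgeR adjusted p ran from 4.92e-21 to 1.16e-14. The SNORD44 intron was at 13%, 12.9%, 12.7% and 14.6% at 48 hr and 23.9%, 22.8%, 24.3% and 24.4% at 96 hr. The members of all genes that contain a snoRNA numbered 33, in 7 genes among the 27 tested, with 7 higher and 1 lower (29.6%), and 6 of the 7 were in GAS5.

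**Figure D3:**
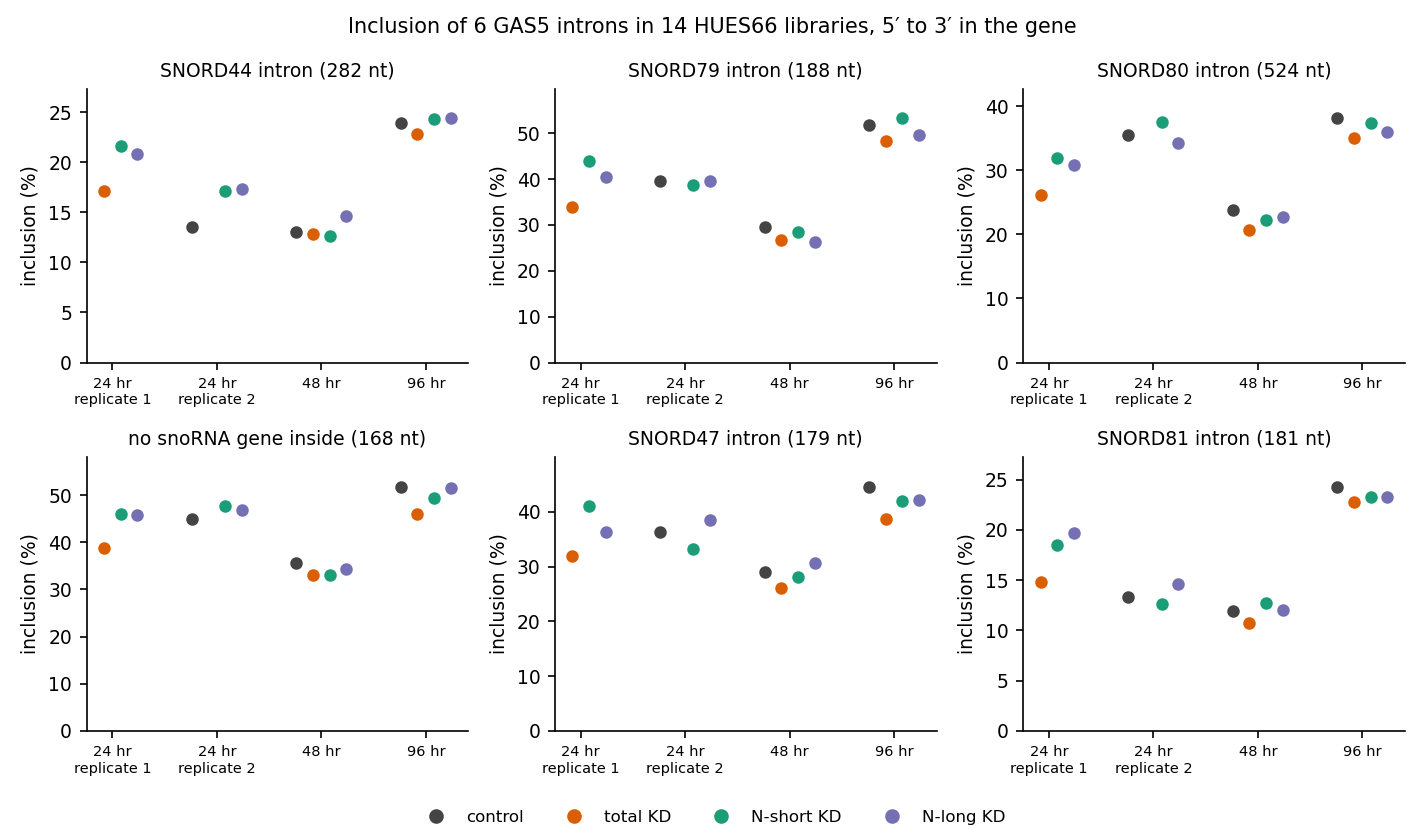
Inclusion in percent (vertical axis, from 0) of 6 GAS5 introns, in order along the gene, in each of the 14 HUES66 libraries by set (horizontal axis), 1 point per library. In all 6 panels the 4 libraries of 96 hr lie above the 4 of 48 hr, and for the SNORD79 intron the 24 hr libraries lie between.

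Members were also counted by gene list, mostly of the splicing machinery. The share of all expressed genes with a member was not counted, so the counts do not show whether members are rare or common there. Of 14 SR proteins 1 had an event (SRSF2), of 23 hnRNP proteins 2 (HNRNPM and HNRNPLL), of 58 core spliceosome genes 4 (SF1, SF3B1, PRPF31 and RNPC3, the last not tested), of 48 other splicing regulators 3 (PTBP1, QKI and CELF2), and of 7 genes known for detained introns 2 (PABPN1 and NXF1). None of 7 SR protein kinases, 16 nonsense-mediated decay genes or 39 tRNA synthetase symbols had one. An event needs at least 10 reads in each library of its table, so a gene without one may still retain introns. In the order above, the lists with an event had 1, 2, 3, 3 and 2 tested introns. At 96 against 48 hr, HNRNPM was higher and SRSF2, SF1 and PABPN1 lower. The other tested members of these lists did not pass. Of all tested retained introns 14.9% passed, and of all events 5.51%. The lists were not compared with these shares by a test.

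SRSF2 encodes an SR protein that is known to limit its own level through splicing in its 3′ UTR. The intron, of 995 nt at chr17:76735159-76736153 on the minus strand, was at 14.1%, 13.1%, 14.9% and 15.9% at 48 hr and 10.1%, 8.24%, 9.68% and 9.32% at 96 hr. It was at 7.75%, 7.97% and 7.43% in replicate 1 and 12.4%, 11.8% and 13% in replicate 2 of 24 hr, so the 24 hr replicates did not overlap either. The difference between 96 and 48 hr was -5.15 ± 1.09 points (SD, n = 4 pairs; edgeR adjusted p = 1.06e-09). Spliced reads were 64.6, 58.0, 55.9 and 56.9 CPM at 48 hr and 86.3, 88.0, 84.6 and 92.3 at 96 hr, while retained reads overlapped, at 17.5 to 21.5 and 15.8 to 19.4.

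HNRNPM, an RNA-binding protein of alternative splicing, holds an intron of 117 nt at chr19:8465363-8465479, plus strand, within coding sequence and a multiple of 3 in length. It was at 50.3%, 44.5%, 47.4% and 46.1% at 48 hr and 58.4%, 57.8%, 57.2% and 55.2% at 96 hr, and at 55.4% to 59.3% in the 6 libraries of 24 hr. The 48 hr libraries therefore stood apart from all others. The difference was 10.1 ± 2.25 points (SD, n = 4 pairs; edgeR adjusted p = 2.78e-09). Retained reads were 64.5, 59.6, 53.7 and 53.9 CPM at 48 hr and 133, 130, 126 and 123 at 96 hr, and spliced reads 36.6, 42.6, 34.2 and 36.1 against 54.1, 54.4, 54.1 and 57.3.

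SF1, the branch point binding protein, holds a last intron of 432 nt that was at 96.4%, 93.9%, 96.0% and 97.9% at 48 hr and 92.4%, 90.1%, 91.2% and 92.6% at 96 hr, a difference of -4.47 ± 0.70 points (SD, n = 4 pairs; edgeR adjusted p = 0.0168). The PABPN1 intron was at 9.76%, 5.82%, 7.48% and 8.53% at 48 hr and 6.45%, 5.13%, 6.12% and 6.54% at 96 hr. Its times overlapped, through the total knockdown library of 48 hr, and the difference was -1.84 ± 1.11 points (edgeR adjusted p = 0.0103). NXF1, the main export receptor of mRNA, was at 19.4%, 22.8%, 24.2% and 24.4% against 16.6%, 13.6%, 19.3% and 12% and did not pass (-7.36 ± 4.30 points, edgeR adjusted p = 0.17).

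AKAP8L, a nuclear anchoring protein, holds an intron of 102 nt at chr19:15403556-15403657, minus strand, again within coding sequence and a multiple of 3 in length. It was at 62.2%, 60.2%, 63.8% and 62.2% at 48 hr and 83.5%, 80.1%, 82.1% and 77.0% at 96 hr, and at 70.9%, 77.1% and 77.4% in replicate 1 and 65.9%, 68.9% and 71.1% in replicate 2 of 24 hr. The times did not overlap, with a difference of 18.6 ± 2.81 points (SD, n = 4 pairs; edgeR adjusted p = 8.43e-08). Spliced reads were 5.65, 5.48, 5.10 and 5.18 CPM at 48 hr and 1.50, 2.18, 1.75 and 2.12 at 96 hr, while retained reads overlapped, at 13.7 to 15.3 and 11.7 to 14.4. Its relative splicing was 44.2%, 43.8%, 40.2% and 44.5% at 48 hr and 19.4%, 27.8%, 22.4% and 26.3% at 96 hr.

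IDH3B and CIRBP were named after their values were seen. IDH3B encodes a subunit of a citric acid cycle enzyme; its intron of 236 nt was at 88.2%, 92.1%, 88.8% and 94.6% at 48 hr and 74.9%, 73.1%, 77.6% and 72.9% at 96 hr (difference -16.3 ± 4.88 points, SD, n = 4 pairs; edgeR adjusted p = 9.17e-08). CIRBP encodes a cold-inducible RNA-binding protein, and its last intron was at 41.6%, 37.1%, 32.1% and 38.4% against 27.9%, 26.3%, 17.0% and 25.7% (-13 ± 1.81 points; edgeR adjusted p = 1.08e-05). In CIRBP the 24 hr replicates differed as well, with 20.2%, 21.2% and 18.9% in replicate 1 and 32.1%, 41.9% and 33.7% in replicate 2.

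**Figure D4:**
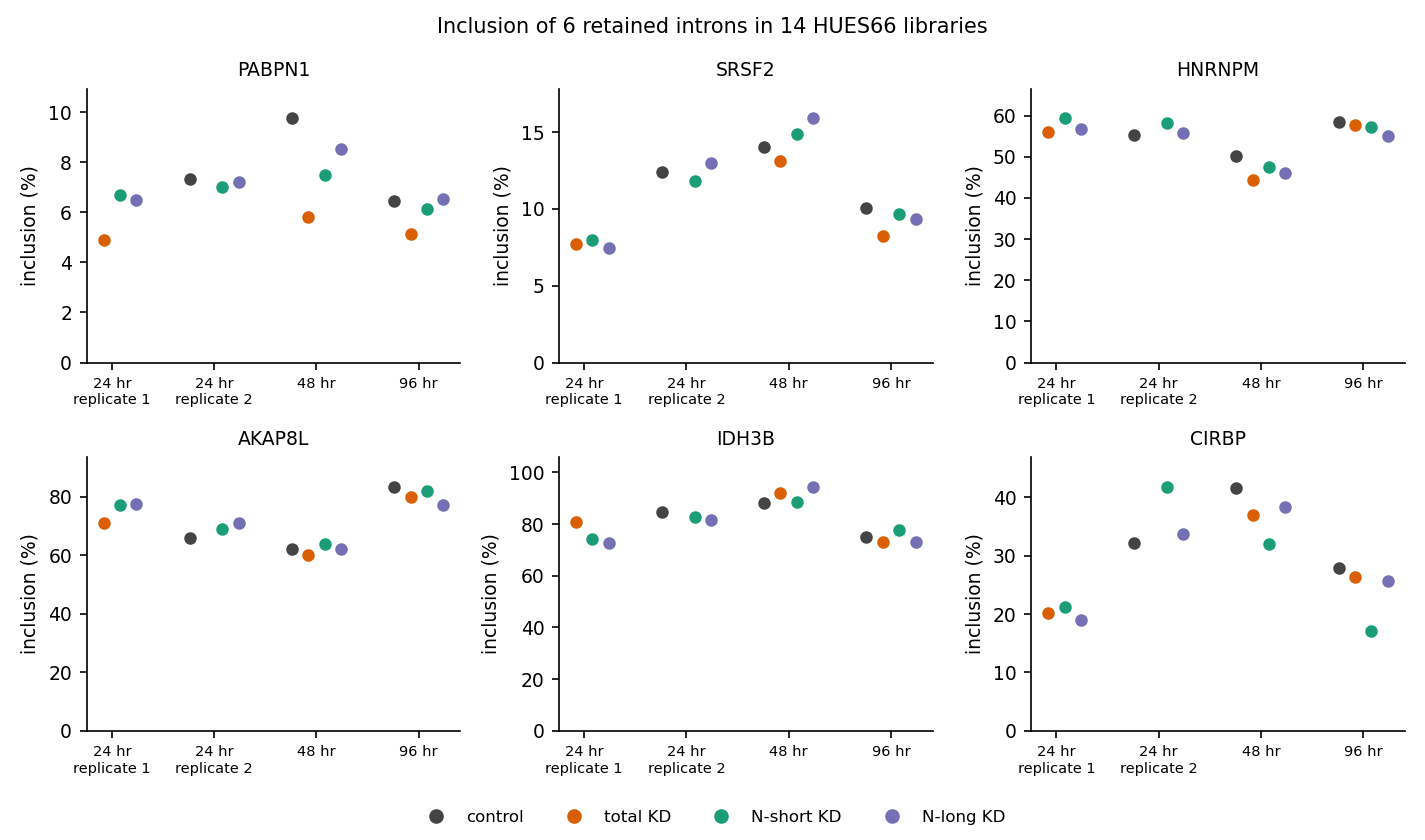
Inclusion in percent (vertical axis, from 0) of the introns of PABPN1, SRSF2, HNRNPM, AKAP8L, IDH3B and CIRBP in each of the 14 HUES66 libraries by set (horizontal axis), 1 point per library. For PABPN1 the total knockdown points are the lowest of each set that has one; for the other 5 genes the 48 hr libraries do not overlap with those of 96 hr.

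Of the introns with the largest differences, SNHG14 (a noncoding snoRNA host gene) was lower by -18.3 ± 4.67 points, at 68.0%, 61.5%, 61.4% and 70.3% at 48 hr and 46.5%, 46.4%, 47.9% and 47.3% at 96 hr (edgeR adjusted p = 1.38e-05). KDM1A, a histone demethylase, was lower by -17.6 ± 10.9 points (edgeR adjusted p = 0.00291) and lost its call in 3 of 11 other fits. ZNF300, FAM200B and FAM104B were higher by 20.0 ± 5.42, 19.9 ± 17.2 and 18.9 ± 9.37 points, and CANT1 and HINT1 lower by -18.0 ± 5.62 and -16.7 ± 7.56 (edgeR adjusted p = 0.0121 to 0.0414). These 5 had means of 45.6 to 58.1 reads per library, and each lost its call in 3 to 9 of 10 or 11 other fits. The introns of GAS5 (SNORD79, both forms), AKAP8L and SNHG14 kept theirs in all 11.

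Cytosolic ribosomal protein genes held 11 members, of which 8 were tested. At 96 hr 2 of the 8 were higher (RPL31 and RPS20) and 1 lower (RPS7). Of all tested retained introns 8.89% were higher and 6.03% lower, and the difference from this small list was not tested. The RPL31 intron, in the 5′ UTR, was at 7.73%, 5.95%, 5.86% and 5.00% at 48 hr and 9.19%, 7.80%, 8.32% and 8.85% at 96 hr. The RPS7 intron, also in the 5′ UTR, was at 97.4%, 97.1%, 96.3% and 96.6% against 88.2%, 93.3%, 89.9% and 86.9%. These genes have many near-identical processed copies without introns, so their spliced reads, and the values with them, are uncertain.

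The last comparison sets cell lines and A375 fractions side by side by relative splicing. With 1 library each there is no replicate check and no test; intervals are exact 95% intervals that cover counting error only, and a difference of 2-fold was taken as the size that counts. The melanoma list (2 of 6 genes at 0, MLANA and TYR) summed to 630.5 CPM in A375 total RNA and 66.9 to 115 in treated HUES66. AXL made up 491 CPM of that sum, and PMEL, of the same list, was lower in A375, at 0.476 CPM against 34.8 to 69.3 in treated HUES66. Nuclear noncoding RNAs summed to 72.9 CPM in nuclear RNA, above the cytoplasmic level.

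Between A375 nuclear and cytoplasmic RNA, 18 of 146 retained introns were at least 2-fold lower (12.3%) and 13 at least 2-fold higher (8.90%) in the nucleus, against 4.24% and 4.73% of 88940 annotated introns. Retained introns have fewer spliced reads, a median of 55.5 against 108, and with at least 20 reads of their own the shares were 3.85% and 2.88% of 104, against 2.13% and 1.07%. The interval left out 1 for 19 of the 146 (13%). This was not counted over all introns, so it shows nothing particular to retained introns. SUPT7L, a subunit of a transcription coactivator, had 24 spliced reads beside 129 of its neighbours in the nucleus and 104 beside 239 in the cytoplasm, a ratio of 0.428 (0.25 to 0.712). NXF1 had 25 beside 104 and 120 beside 279, a ratio of 0.56 (0.329 to 0.925). Both had lower relative splicing in the nuclear library, but NXF1 fell short of 2-fold. In the other direction SNHG1, a snoRNA host gene, had 69 beside 131 and 64 beside 210, a ratio of 1.73 (1.13 to 2.64). SRSF2 had a ratio of 1.30 (1.01 to 1.69), and neither gene reached 2-fold.

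Between A375 and HUES66 WT, 20 of 171 introns were at least 2-fold lower (11.7%) and 17 higher (9.94%) in A375, against 3.67% and 5.47% of 95329. Between HEK293 and HUES66 WT, 21 of 157 were lower (13.4%) and 12 higher (7.64%) in HEK293, against 3.53% and 6%; between A375 and HEK293, 17 of 142 were lower (12%) and 19 higher (13.4%) in A375, against 5.30% and 4.50%. With at least 20 spliced reads of their own, 7 introns were lower and 5 higher of 117 for A375 against HUES66 WT (5.98% and 4.27%). The numbers were 4 and 5 of 105 for HEK293 against HUES66 WT (3.81% and 4.76%). For A375 against HEK293 they were 4 and 2 of 91 (4.4% and 2.20%). Counts this small do not show which side is larger. All introns at that depth had 1.60% and 1.25%, 1.57% and 1.31%, and 1.42% and 1.30%. The AKAP8L intron had 2 spliced reads beside 120 of its neighbours in A375 and 4 beside 227 in HEK293, but 61 beside 482 in HUES66 WT, which gives ratios of 0.132 (0.0154 to 0.51) and 0.14 (0.0364 to 0.383). Relative splicing was thus 3.33% and 3.52% in those lines and 25.3% in HUES66 WT, within the 19.4% to 44.5% of the treated HUES66 libraries.

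The introns of NFE2L1 and CCDC88A had higher relative splicing in A375 and HEK293 than in HUES66 WT. The NFE2L1 intron had 12 reads beside 166 in A375 and 13 beside 163 in HEK293, against 8 beside 464 in HUES66 WT, ratios of 4.18 (1.54 to 12) and 4.61 (1.74 to 13.1). For CCDC88A, an actin-binding protein, the ratios were 9.81 (1.60 to 69.4) and 11.9 (3.06 to 67.9), from 4, 11 and 3 reads. QKI, a splicing regulator, had a ratio of 2.97 (1.84 to 4.83) in HEK293 against HUES66 WT. Between A375 and HEK293, SNHG17 had a ratio of 0.178 (0.0433 to 0.548) and SUPT7L of 0.523 (0.299 to 0.898), while AMBRA1, a regulator of autophagy, had 2.74 (1.27 to 6.05) and HNRNPM 1.67 (1.40 to 1.99). Of these, SUPT7L and HNRNPM did not reach 2-fold. For HNRNPM, A375 was at 70.5%, HEK293 at 42.2% and HUES66 WT at 49.1%.

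**Figure D5:**
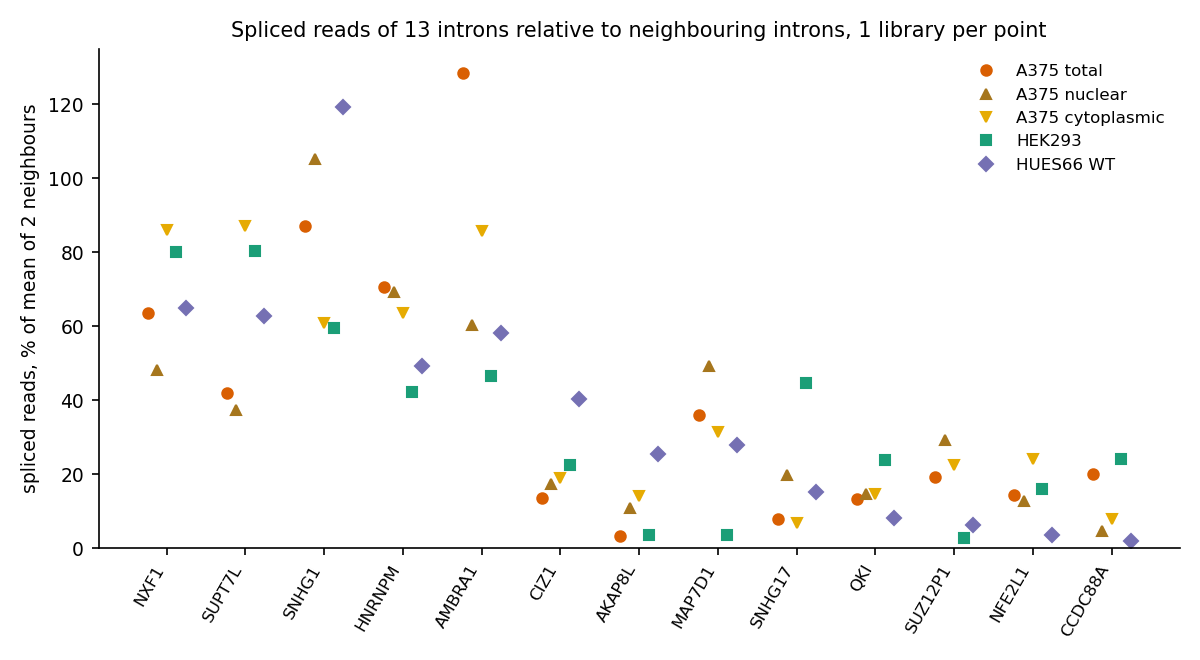
Relative splicing (vertical axis: spliced reads as percent of the mean of 2 neighbouring introns, from 0) of 13 retained introns (horizontal axis, by gene) in HEK293, HUES66 WT and the 3 A375 RNA samples (total, nuclear, cytoplasmic), 1 library per point and no error bars. AKAP8L is lowest in A375 total RNA and HEK293, at 3.33% and 3.52%. NXF1 and SUPT7L are lower in nuclear than in cytoplasmic A375 RNA, NXF1 by less than 2-fold.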

How the data were processed

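Retained and spliced read counts per library came from the rMATS tables deposited by the authors, whose inclusion levels are a fraction per library and event; per the file headers these are raw counts, and inclusion computed here from the form lengths (157 nt skipping, up to 314 nt inclusion) differed from the authors' fraction by at most 0.05 percentage points. Every row has at least 10 reads in each library of its table. Junction counts are the authors' deposited raw spliced reads per junction. STAR 2.7.1, SAMtools 1.9 and hg38 are named in the submitters' processing notes; whether strand was used in counting is not given in the sources used here, so an overlapping antisense gene would count as retained. The authors' p-value and difference columns were not used here, nor 9 library columns that no label matches.

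The tables give the whole retained region, so each row was tied to the junction inside it whose reads matched (4099 rows; 81 by annotated exon ends). Places, neighbours and sequences come from GENCODE 29, snoRNAs also from RefSeq. Introns needed a value in every library, a mean of at least 20 reads and of 2 for the rarer form; 11 introns whose control values differ between tables were left out.

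Events of all types were fitted together with edgeR 4.0.16 (R 4.3.3): the reads of both forms as paired columns of each library, TMM factors, terms for library, form by set and form by knockdown (for 96 against 48 hr, form by knockdown and form by time), with Benjamini-Hochberg adjustment over all events and a threshold of 0.05. Set is a term because libraries of 1 set deviated together: residual correlations were 0.0942 to 0.346 in 18 pairs of the same set and -0.311 to 0.252 in 55 pairs of different sets. Differences are means within sets. Spliced reads were fitted likewise against those of both neighbours, with 1 dispersion trend estimated from all libraries for the alternatives; ratios between 2 libraries needed 20 neighbour reads in each. limma 3.58.1 and DESeq2 1.42.0 were alternatives (DESeq2 not for the times). On simulated counts for 96 against 48 hr, the test recovered 53% of changed events at a log2 odds change of 1 and 79% at 2 among 15962; for total knockdown, 39% and 72% among 15796.

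Named introns were the 10 of highest control inclusion, up to 10 that passed in a comparison with the largest difference and 1 sign in every set, the 5 of smallest p where fewer than 3 passed, up to 6 each way between libraries, list members and minor-class introns. Members and lists were chosen with earlier results of these data known. Some items that the rule names are not reported here.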

Additional observations from a re-analysis of the deposited data

How the results depend on the processing

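With total knockdown the 1 call became 0 with DESeq2 and 0 with limma, and 0 to 1 when 1 control or total knockdown library was left out; without the N-long knockdown library of 24 hr replicate 2, which is in the fit but not in the comparison, it was 2. The count of 47 introns between 96 and 48 hr became 19 with limma (11 higher, 8 lower) and 30 to 42 when 1 library was left out. With no replicate block (time in place of library set) the counts of the 4 knockdown comparisons stayed 1, 0, 0 and 0. Introns past 2-fold numbered 31 of 146 between A375 fractions, 37 of 171 between A375 and HUES66, 33 of 157 between HEK293 and HUES66 and 36 of 142 between A375 and HEK293. With at least 100 neighbour reads these were 9 of 54, 14 of 75, 14 of 76 and 12 of 62. HEK293 against HUES66 then had 6 lower and 8 higher in place of 21 and 12. A375 against HEK293 had 8 lower and 4 higher in place of 17 and 19. All introns at that depth had 2.54% lower and 3.01% higher for the fractions and 2.46% and 3.94% for A375 against HUES66. They had 2.09% and 4.79% for HEK293 against HUES66 and 4.15% and 2.81% for A375 against HEK293. With all other introns of the gene as neighbours, 52 of 194 passed for the fractions and 50 of 193 for HEK293 against HUES66. All introns then had 7.13% and 8.65%, and 6.6% and 9.37%. The mean of the library medians of inclusion, 36.74%, was 51.99% as a share of raw reads, 44.24% over all introns with a read and 30.85% with at least 50 reads. Of the named introns' other fits that leave out no library or a library of their own comparison, 339 kept the side of the threshold, 38 lost a call and 0 reversed; of those that leave out another library, 1 gave the CTNNB1 intron a call. The HUES66 WT library as control of 24 hr replicate 1 was run for relative splicing alone, with 0 calls. Depth limits what can be seen: with a median of 86 reads per intron and library, small differences in thinly covered introns were not detectable.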
